A study of Mus musculus with 6 samples.

Results

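The genes described here are 7 mouse genes that are linked in the literature to type 17 lymphocytes: the cytokines Il17a and Il17f, the receptor subunits Il23r and Il17re, the transcription factors Zbtb16 and Sox13, and the tyrosine kinase Blk. They were taken by gene name from a raw count table of 49315 genes, in which all 7 were found. The list was chosen by measured values: it was formed around Il17a because the log2 ratio of that gene was among the lowest in Lamp1-enriched over Lamp1-depleted lung cells of bleomycin (BLM) mice, so its value there is a description and no finding. RNA was sequenced from lung cells of male C57BL/6J mice that had received BLM by the oropharyngeal route or, as the sham group, sterile saline. Dissociated lungs of several mice of a group were pooled, so animals cannot be told apart. Cells were left unsorted or were sorted on surface Lamp1, a lysosomal membrane protein that the study examined as a senescence marker, into Lamp1-depleted and Lamp1-enriched fractions. There was 1 library for each of the 6 conditions. Intervals below are 95% counting intervals, which hold no variation between mice, and no p-value was computed.

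Type 17 lymphocytes secrete the cytokines IL-17A and IL-17F, and they include T helper cells, innate lymphoid cells, mucosal-associated invariant T cells and a subset of γδ T cells. In the lung, γδ T cells are a known early source of IL-17A, which acts on epithelial and stromal cells to induce chemokines that draw neutrophils. IL-23, sensed through the receptor subunit encoded by Il23r, sustains their programme. Several of the listed genes are known to be used by other cells too, among them Blk by B cells.

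All 7 genes were found in GENCODE M21 on the GRCm38 build, and no other annotated gene overlapped any of them. Il17a lies at chr1:20730905-20734496 on the plus strand and Il17f at chr1:20777146-20790617 on the minus strand, so the cytokine pair are neighbours. Sox13 is on the same chromosome at chr1:133382303-133424377. Il23r (chr6:67422932-67491855) and Il17re (chr6:113458484-113470758) share chromosome 6. Blk is at chr14:63372836-63417037 and Zbtb16 at chr9:48654297-48836222. RefSeq promoters (GRCm38.p6) were at hand for 5 of the 7 genes. The 250 bases before the transcription start are shown for the cytokine pair and for Il23r because these hold the letters AGGTCA, a half-site to which nuclear receptors are known to bind, on one strand or the other. The capitals mark AGGTCA, or TGACCT where it lies on the opposite strand.
Il17a, chr1:20730655-20730904, plus strand: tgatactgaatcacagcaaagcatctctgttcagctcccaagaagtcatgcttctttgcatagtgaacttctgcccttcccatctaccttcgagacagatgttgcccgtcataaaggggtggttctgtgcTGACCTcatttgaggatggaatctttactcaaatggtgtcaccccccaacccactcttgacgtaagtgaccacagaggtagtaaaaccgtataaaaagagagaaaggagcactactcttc
Il17f, chr1:20784271-20784520, minus strand: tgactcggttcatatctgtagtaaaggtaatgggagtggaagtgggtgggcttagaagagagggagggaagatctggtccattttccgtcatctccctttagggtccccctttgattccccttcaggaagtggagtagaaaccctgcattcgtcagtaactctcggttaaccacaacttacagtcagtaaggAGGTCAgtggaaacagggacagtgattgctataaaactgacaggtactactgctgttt
Il23r, chr6:67491856-67492105, minus strand: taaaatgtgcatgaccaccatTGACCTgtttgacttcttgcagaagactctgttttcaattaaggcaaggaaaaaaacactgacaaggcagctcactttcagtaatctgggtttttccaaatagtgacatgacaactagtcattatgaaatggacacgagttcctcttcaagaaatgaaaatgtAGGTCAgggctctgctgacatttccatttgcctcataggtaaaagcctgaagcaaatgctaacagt
The match ran from base -120 to -115 relative to the start in Il17a and from -58 to -53 in Il17f. Il23r held a pair of matches, from -229 to -224 and from -66 to -61. The upstream windows of Il17re and Sox13 held none. The same letters, searched on both strands, were present in 14.0% of 32851 upstream windows of equal length. Also searched were TGTGGT, labelled RUNX, and TTCNNNGAA, labelled STAT, where N is any base. The first was in the windows of Il17a and Il17f, and the second in that of Sox13 alone. They were present in 14.0% and 7.02% of the upstream windows. A match describes letters and not a bound site. The Il17f window lies inside the GENCODE locus of that gene, whose longest transcript starts farther upstream.

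Counted reads per library ranged from 30236120 to 52918696. The BLM Lamp1-depleted library stood apart: 38.4% of its reads fell on 1 gene, Gm26917, against 0.884% to 7.10% in the others, and its TMM factor, a scaling factor for composition, was 0.699. Lamp1 RNA was higher in the enriched than in the depleted cells, with log2 ratios of 1.75 in sham and 1.77 in BLM. The labelled tissue held lymphocytes: the summed level of the 18 T cell markers was 1131 CPM (reads scaled to the library total and its TMM factor) in sham and 954 CPM in BLM depleted cells, against 66.7 and 46.8 CPM in the enriched cells. The sort separated lymphocytes from endothelium, since Cd3e, a T cell receptor component, had log2 ratios of -4.49 and -4.23 and Pecam1, an endothelial adhesion molecule, of 2.25 and 2.56. In bulk libraries, fewer cells of a type and less RNA per cell cannot be told apart.

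Il17a, the signature cytokine, was read in depleted and unsorted cells of both treatments and in neither enriched library. It had 14 reads in sham unsorted, 43 in sham depleted and 0 in sham enriched cells, and 17, 50 and 0 reads in the BLM cells in the same order. Scaled by TMM, BLM depleted cells were highest at 2.37 CPM (1.76 to 3.12), followed by sham depleted cells at 0.943 CPM (0.683 to 1.27). BLM unsorted cells had 0.431 CPM (0.251 to 0.690) and sham unsorted cells 0.288 CPM (0.158 to 0.484), and these neighbours did not differ beyond their intervals. The counts of 0, taken at the floor of 3 reads, allow up to 0.0652 CPM in sham and 0.0550 CPM in BLM enriched cells. The depleted libraries therefore lay above the enriched ones in both treatments. Against the unsorted cells, the log2 ratio of the depleted cells was 1.67 (0.81 to 2.69) in sham and 2.43 (1.64 to 3.34) in BLM.

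Il17f, the close relative of Il17a, was near the limit of detection. Its reads were 9, 11 and 2 in sham unsorted, depleted and enriched cells, and 0, 1 and 6 in the BLM cells. It did not share the Il17a pattern in BLM mice, where 6 of its 7 reads came from the enriched library. The highest level was 0.241 CPM (0.120 to 0.432), in sham depleted cells. No order among the BLM libraries could be read at this depth.

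Il23r, which encodes the IL-23 receptor subunit, had more reads than either cytokine. It had 85, 420 and 21 reads in sham unsorted, depleted and enriched cells, and 53, 128 and 20 in the BLM cells. The depleted cells were highest in each treatment, at 9.21 CPM (8.35 to 10.1) in sham and 6.06 CPM (5.05 to 7.20) in BLM. Unsorted cells followed at 1.75 and 1.34 CPM, and the enriched cells were lowest at 0.456 and 0.367 CPM. By TMM the unsorted pair did not differ beyond their intervals, nor did the enriched pair. Where Il17a was highest in BLM depleted cells, Il23r was highest in sham depleted cells.

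Il17re encodes the IL-17C receptor subunit, which epithelial cells are known to carry as well as type 17 lymphocytes. It varied less than Il23r, with 92, 81 and 61 reads in the sham cells and 68, 62 and 53 in the BLM cells, in the order unsorted, depleted and enriched. The level was highest in BLM depleted cells at 2.93 CPM (2.25 to 3.76) and lowest in BLM enriched cells at 0.972 CPM (0.728 to 1.27). The other 4 libraries lay between 1.33 and 1.90 CPM with intervals that overlapped by TMM. The top rank of BLM depleted cells did not hold by total counts. There their log2 ratio over sham depleted cells was 0.00 (-0.50 to 0.50).

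**Figure D1:**
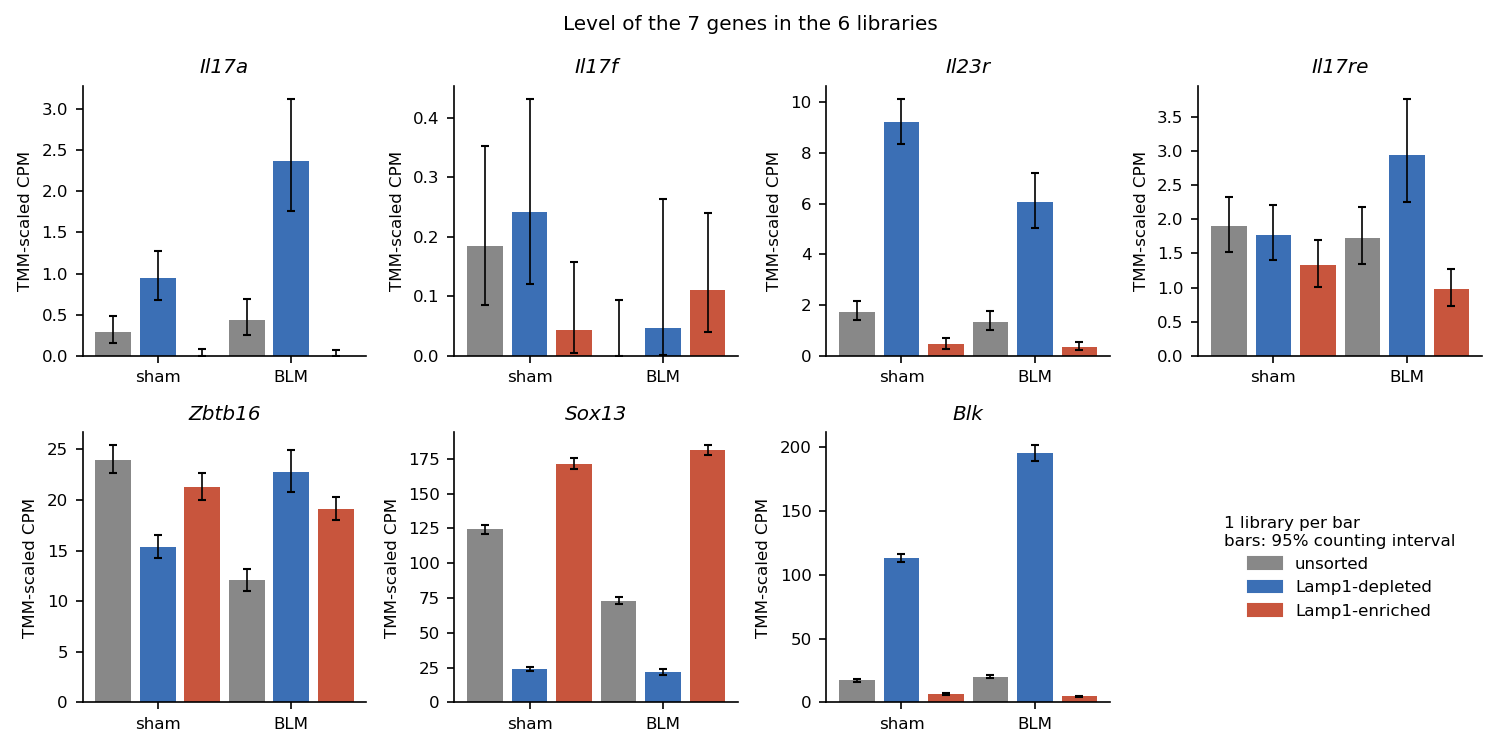
TMM-scaled CPM (vertical axes, each from 0) of the 7 genes in the 6 libraries, 1 library per bar, with 95% counting intervals as error bars. Il17a, Il23r and Blk peak in the Lamp1-depleted libraries, Sox13 is lowest there, at 24.2 and 21.8 CPM, and Il17a has 0 reads in both enriched libraries.

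Among the transcription factors, Zbtb16 (PLZF), which directs innate-like T cells, was at similar TMM-scaled levels in all fractions. It had 1164, 700 and 980 reads in sham unsorted, depleted and enriched cells, and 476, 481 and 1043 in the BLM cells. In CPM, sham unsorted cells (24.0, 22.6 to 25.4) and BLM depleted cells (22.8, 20.8 to 24.9) were highest and did not differ beyond their intervals. BLM unsorted cells were lowest at 12.1 CPM (11.0 to 13.2), so the whole range was within a factor of 2 by TMM. The unsorted libraries differed 2.38-fold by total counts and 2.25-fold with Gm26917 left out of the totals. By total counts the log2 ratio of BLM over sham depleted cells was -0.15 (-0.32 to 0.02), so the order of the libraries depended on the scaling.

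Sox13, a factor that γδ T cells use on the way to IL-17 production, followed the reverse order of Il17a. It had 6038, 1102 and 7891 reads in sham unsorted, depleted and enriched cells, and 2888, 460 and 9869 in the BLM cells. The enriched cells were highest at 171 CPM in sham and 181 CPM in BLM. The depleted cells were lowest, at 24.2 CPM (22.8 to 25.6) and 21.8 CPM (19.8 to 23.9), with intervals that overlapped by TMM. Most Sox13 reads thus came from the libraries in which T cell markers were low.

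Blk encodes a Src-family kinase of B cells and of IL-17-producing γδ T cells. It had 835, 5146 and 300 reads in sham unsorted, depleted and enriched cells, and 796, 4122 and 255 in the BLM cells. The levels were 17.2, 113 and 6.52 CPM in sham and 20.2, 195 and 4.68 CPM in BLM. By TMM the intervals of all 6 libraries were apart. By total counts, BLM over sham had log2 ratios of -0.03 (-0.17 to 0.11) in unsorted and 0.07 (0.01 to 0.13) in depleted cells. Blk thus peaked in the depleted cells of both treatments.

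Levels of different genes can be compared only per length, and on CPM per kilobase of exon the order changed with the fraction. In sham depleted cells Blk led at 41.8, followed by Sox13 at 5.61, Il23r at 3.70, Zbtb16 at 2.91, Il17a at 0.805, Il17re at 0.303 and Il17f at 0.119. In sham enriched cells Sox13 led at 39.8, with Zbtb16 at 4.03, Blk at 2.42, Il17re at 0.226, Il23r at 0.183 and Il17f at 0.0215. Il17a was thus a minor transcript even where it was highest, with 2.02 in BLM depleted cells against 72.3 for Blk.

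Comparing enriched with depleted cells asks which genes mark the cells with Lamp1 on their surface. In sham cells, 3 of the 7 genes (Il17a, Il23r and Blk) had a log2 ratio of at most -3, a level that 6.86% of 21867 tested genes reached, and 0 were at 3 or above, which 6.19% reached. A gene counted as tested when 1 of the compared libraries held 10 reads or more of it. At the lower limit of 1, 4 genes were at most -1 (25.2% of all tested genes) and 1 was at least 1 (27.5%). Their median was -2.20, against -0.01 over all tested genes. In BLM cells, the contrast used to choose the list, 3 of 6 tested genes were at most -3 (6.62% of 21838 genes) and 1, Sox13, was at least 3 (10.7%). Sox13 was close to that limit and under it with DESeq2 size factors (2.90) and with Gm26917 left out of the totals (2.94). In the same contrast 4 genes were at most -1 (22.6%) and 1 at least 1 (34.4%). The median was -2.79, against 0.29 over all tested genes.

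The lymphocyte-side genes differed by large factors. Against a floor of 3 reads for a library with none, Il17a was at least 14.5-fold lower in sham and at least 43.0-fold lower in BLM enriched cells. The 95% counting interval of the ratio is wider than this floor, and its end nearest to 0 was -3.49 for the sham and -5.07 for the BLM cells on the log2 scale. On the fitted scale it was the 4th lowest gene in the BLM contrast, beside 4930405G09Rik at -7.74 and Gm12424 at -7.54, and its own value of -7.66 depends on the prior count. The Il23r log2 ratios were -4.30 (-5.04 to -3.70) in sham and -4.00 (-4.80 to -3.36) in BLM. Blk had -4.11 (-4.29 to -3.95) and -5.38 (-5.57 to -5.20). Il17a, Il23r and Blk were thus lower in enriched cells of both treatments.

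The other 4 genes did not share that direction and size. Sox13 was higher in the enriched cells, at 2.83 (2.74 to 2.92) in sham and 3.06 (2.92 to 3.19) in BLM, or 7.09-fold and 8.31-fold. Il17re was at -0.42 (-0.93 to 0.07) and -1.58 (-2.15 to -1.04), so its sham interval held 0 by TMM. The sham value was -0.59 (-1.10 to -0.10) by total counts and -0.63 (-1.14 to -0.14) with Gm26917 left out of the totals. Zbtb16 was at 0.47 (0.33 to 0.61) in sham and at -0.25 (-0.41 to -0.09) in BLM, where scaling by total counts turned the sign to 0.31. Il17f was at -2.20 (-5.69 to -0.28) in sham, on 2 and 11 reads, and had too few reads in BLM. The 7 genes therefore did not move as a single lymphocyte list.

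**Figure D2:**
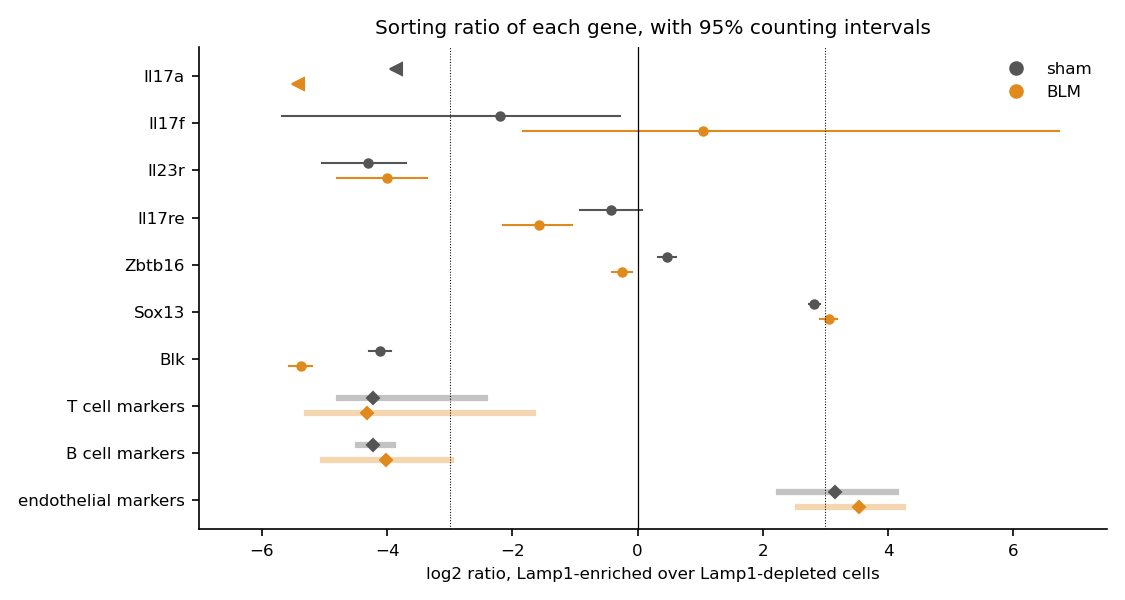
Log2 ratio of Lamp1-enriched over Lamp1-depleted cells (horizontal axis) for each gene, with sham and BLM as separate points, 95% counting intervals as bars and triangles for Il17a as bounds at 3 reads. Below them, diamonds are medians and thick bars ranges of marker lists, and dotted lines stand at -3 and 3: Il23r (-4.30 and -4.00) sits with the T cell markers (medians -4.22 and -4.33), and Sox13 (2.83 and 3.06) with the endothelial markers (3.16 and 3.54), while Il17f in BLM rests on 6 and 1 reads.

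Marker lists showed where each gene fell. In sham cells 17 of 18 T cell markers, 12 of 12 B cell markers and 4 of 4 γδ T cell receptor constant genes were at most -3, with medians of -4.22, -4.22 and -4.23. In BLM cells these counts were 17, 11 and 3, with medians of -4.33, -4.02 and -5.10. Il23r and, in sham, Blk lay inside the range of the T cell markers, which ran from -4.77 to -2.43 in sham and from -5.28 to -1.67 in BLM. Sox13 lay inside the range of the 10 endothelial markers in both treatments, 2.25 to 4.13 in sham and 2.56 to 4.24 in BLM.

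Over all 6 libraries, the pattern of a gene was compared with the mean pattern of each marker list by the root mean square (RMS) difference in log2 CPM, after each was centred on its mean. Sox13 was nearest to the endothelial list, at 0.177, and stood 3.03 from the T cell list. Il23r was nearest to the γδ constant genes (0.432) and the T cell list (0.462), and Blk to the T cell list (0.471), with the B cell list at 0.787. Il17a was also nearest to the γδ list, but at 1.70. It lay below that list in both enriched libraries, most in sham, where its 0 counts take a value set by the prior count. It lay above the list in BLM depleted and in both unsorted libraries. Il17re was nearest to the neutrophil list, at 0.820, and to Zbtb16 at 0.551. Il17f, on few reads, was nearest to the NK cell list, at 1.70. The data thus go against the label for Sox13. Zbtb16 stood equally far, at 1.09, from the neutrophil, epithelial and fibroblast lists. For Il17re the distance reflects the size of its changes as well as their order. By TMM it was, like Il17a, highest in BLM depleted and low in both enriched libraries. These distances describe 6 libraries and were given no test.

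**Figure D3:**
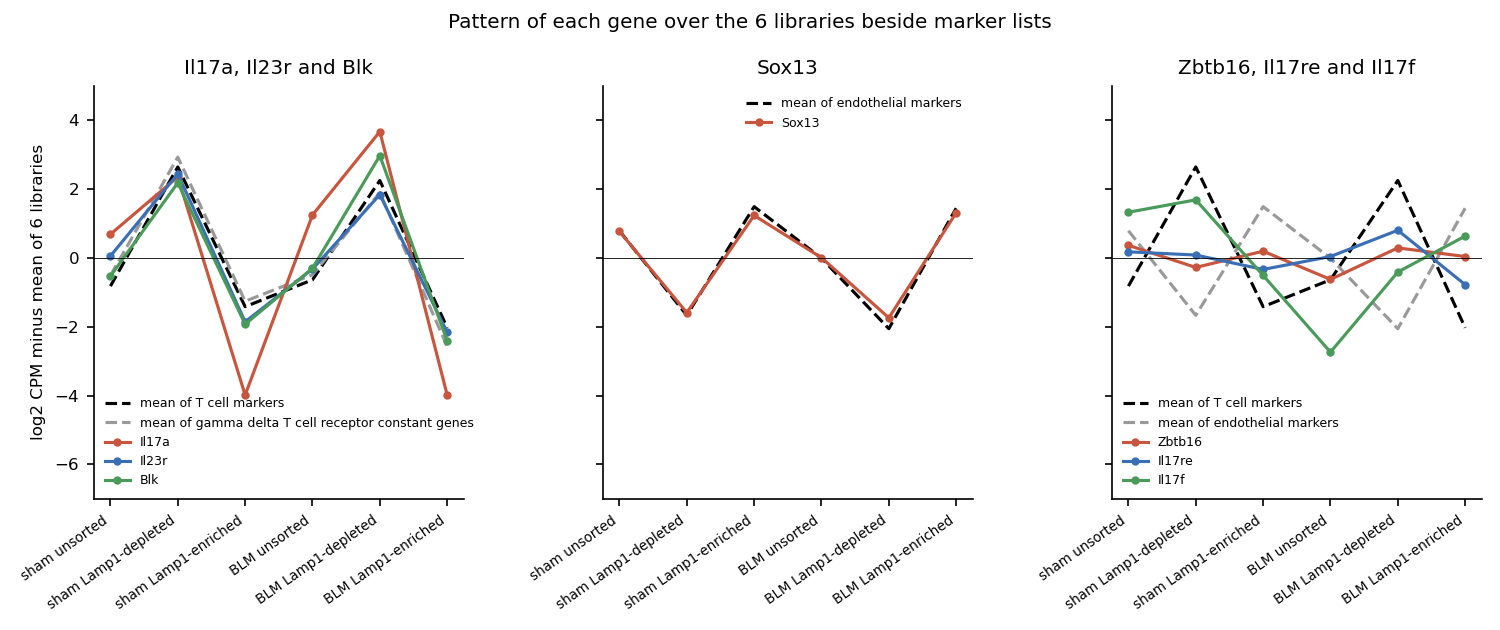
Log2 CPM minus the mean of the 6 libraries (vertical axis) for each gene in each library, with the mean of marker lists as dashed lines; Il17a and Il17f at 0 reads are drawn at the value the prior count gives. Il23r and Blk run along the T cell markers (RMS 0.462 and 0.471), Sox13 along the endothelial markers (0.177), and Zbtb16 and Il17re vary less than the lists.

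The genes nearest to Il17a by the same measure, among 17934 with at least 50 reads in their highest library, were 4930439D14Rik (0.826), Cd163l1 (0.915), Mir7212 (0.946), Btnl2 (1.01) and Traj23 (1.05). Cd163l1 encodes a scavenger receptor that is known from γδ T cells. Its reads were 49, 265 and 9 in sham unsorted, depleted and enriched cells and 119, 347 and 13 in BLM cells. Its highest level, as for Il17a, was in BLM depleted cells, which is a description because nearness to Il17a chose it. Traj23 is a joining segment of the T cell receptor α locus. The related scavenger receptor gene 5830411N06Rik ranked 6th, at 1.06.

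Comparing BLM with sham asks what the injury changed within a fraction. No gene of the list passed a log2 ratio of 3 in either direction: 0 of 6 tested in unsorted, 0 of 7 in depleted and 0 of 5 in enriched cells. Over all tested genes, at most -3 was reached by 1.92%, 3.9% and 0.545%, and at least 3 by 1.66%, 2.56% and 1.34%. The medians of the list were -0.26, 0.57 and -0.31, against -0.07, -0.21 and 0.00 over all tested genes. At the lower limit of 1, Il17a in depleted cells was the 1 gene above (13.7% of all tested genes) and Il17f the 1 below (22.3%). By total counts Il17a fell short and Il23r passed, leaving 0 above and 2 below. In unsorted cells 0 genes were at most -1 (16% of all tested genes) or at least 1 (13.9%), although Zbtb16 (-1.25) and Sox13 (-1.03) passed -1 by total counts, and Zbtb16 (-1.17) with Gm26917 left out of the totals. In enriched cells 0 genes passed either limit (7.81% and 10.2%). Scaled by total counts, the median of the list in depleted cells was -0.15.

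In depleted cells, Il17a was 2.49-fold higher in BLM, a log2 ratio of 1.32 (0.71 to 1.95), but scaled by total counts it was 0.60 (-0.01 to 1.23), an interval that held 0. The same BLM library enters the contrast that chose the gene. Blk was at 0.79 (0.73 to 0.85) and Il17re at 0.72 (0.22 to 1.22), and by total counts these fell to 0.07 and 0.00. Zbtb16 was at 0.57 (0.40 to 0.74), but at -0.15 when scaled by total counts. Il23r went the other way, at -0.60 (-0.90 to -0.32), or -1.32 by total counts. Sox13 was at -0.15 (-0.31 to 0.01), an interval that held 0, but at -0.87 (-1.03 to -0.71) by total counts. With Gm26917 left out of the totals Sox13 was at -0.22 (-0.38 to -0.07). Il17f had 1 read against 11, and its TMM interval also held 0 (-7.78 to 0.43), while by total counts it did not (-8.50 to -0.29). The receptor for IL-23 and the cytokine thus had opposite signs between the same libraries.

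In unsorted cells Il17a was at 0.56 (-0.53 to 1.71) and Il23r at -0.38 (-0.91 to 0.13), and by TMM neither differed beyond counting error. By total counts Il23r was at -0.64 (-1.17 to -0.13), an interval that left out 0. With Gm26917 left out of the totals Il23r was at -0.56 (-1.08 to -0.05). Zbtb16 (-0.99, -1.15 to -0.84) and Sox13 (-0.76, -0.83 to -0.70) were lower in BLM. Endothelial markers were also lower there, with a median of -0.84. Blk was at 0.23 (0.09 to 0.37), and at -0.03 when scaled by total counts. Il17re was at -0.14 (-0.61 to 0.33), and Il17f had 0 reads in BLM against 9 in sham.

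Between the enriched libraries the genes differed little. Sox13 was at 0.08 (0.04 to 0.12) and Zbtb16 at -0.15 (-0.28 to -0.03), and Blk was lower in BLM at -0.48 (-0.73 to -0.23). The intervals of Il23r (-0.31, -1.27 to 0.64) and Il17re (-0.44, -1.01 to 0.11) held 0. Il17a, at 0 reads in both, gave no ratio. B cell markers were lower in the same comparison, with a median of -1.14.

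**Figure D4:**
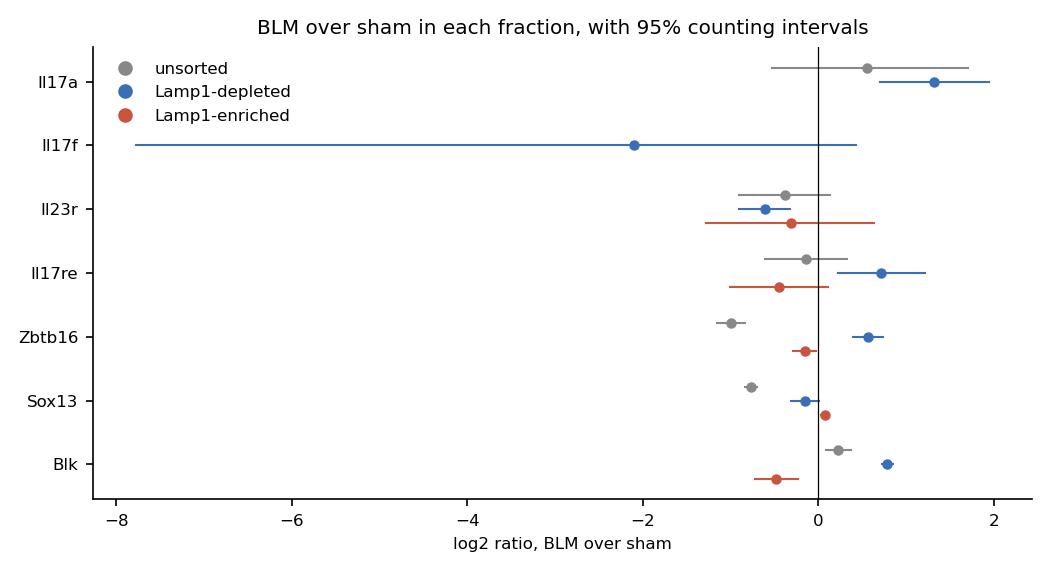
Log2 ratio of BLM over sham cells (horizontal axis) for each gene in unsorted, Lamp1-depleted and Lamp1-enriched cells, with 95% counting intervals; pairs with fewer than 10 reads in the higher library or with 0 reads are left out. In depleted cells Il17a (1.32) lies to the right of 0 and Il23r (-0.60) to the left, while the wide bar of Il17f rests on 1 and 11 reads.

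The depleted fractions differed in RNA of T cell markers. By TMM, 12 of the 18 markers were lower and 6 higher in BLM. Reads were therefore also set against those of T cell genes. Per 1000 reads of the CD3 genes Cd3d, Cd3e and Cd3g, Il17a had 5.21 reads (3.77 to 7.03) in sham depleted and 28.4 in BLM depleted cells, a fold of 5.44 (3.53 to 8.40). In unsorted cells it had 23.9 (13.0 to 40.5) and 44.6 (25.7 to 72.4), a fold of 1.86 (0.853 to 4.14) whose interval held 1. The 0 counts of the enriched cells, at the same floor of 3 reads, allow up to 7.69 per 1000 in sham, above the level of sham depleted cells. In BLM they allow up to 13.4, below the level of BLM depleted cells. The counting intervals reach farther, to 9.50 in sham and 16.6 in BLM. These BLM reads chose the gene, so their order is a description and decides nothing on T cell content. The absence of Il17a from sham enriched cells was not distinguishable, at this depth, from their low number of CD3 reads.

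Other genes moved to differing degrees per CD3 read between the depleted libraries. Cd163l1 was 6.13-fold (5.16 to 7.27) and 5830411N06Rik 4.30-fold higher in BLM. Both ranked near Il17a over these same libraries, so their rise beside it is a description. Il23r was 1.43-fold (1.15 to 1.75) and Trdc, the γδ receptor constant gene, 1.03-fold (0.854 to 1.22). Foxp3, the regulatory T cell factor, was 5.63-fold higher. A rise per CD3 read was therefore not limited to type 17 genes.

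The size of the Il17a fold depended on the T cell gene it was set against. It was 4.37 (2.81 to 6.81) per read of the γδ constant genes, 2.97 (1.94 to 4.58) per read of the T cell marker list and 1.44 (0.940 to 2.23) per read of Lck and Lat, T cell signalling genes chosen as a denominator after their values were seen. Cd163l1 was at 4.92, 3.35 and 1.63 with the same denominators. Il23r was at 1.15, 0.780 and 0.379, so its direction turned with the denominator. T cell markers themselves ranged from -1.90 to 1.28 in log2 ratio between the depleted libraries. Over 14594 protein-coding genes, that ratio had a Spearman correlation of 0.374 with GC content, against -0.0885 to 0.101 in the other comparisons. Il17a (42.4% GC), Il23r (41.6%) and Cd3e (44.5%) had lower GC contents than Blk (53.9%), Lck (54.3%) and Lat (57.5%). Genes of similar GC content still differed in the log2 ratio between the depleted libraries. Il17a was at 1.32 and Il23r at -0.60, and Lck was at 0.58 and the B cell marker Cd79a (54.9%) at -2.55. The part of base composition and of the Gm26917 share in these folds was not tested.

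**Figure D5:**
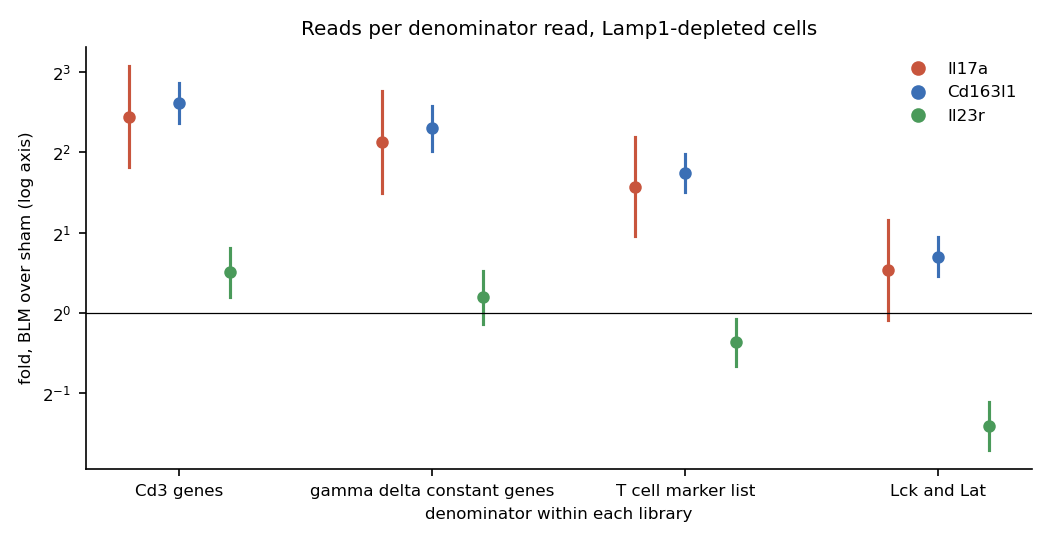
Fold of BLM over sham Lamp1-depleted cells (vertical axis, log scale) in the reads of Il17a, Cd163l1 and Il23r per read of each of 4 denominators (horizontal axis), with 95% counting intervals and a line at a fold of 1. Il17a falls from 5.44 per CD3 read to 1.44 per Lck and Lat read and Cd163l1 from 6.13 to 1.63, while Il23r passes from 1.43 to 0.379.

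Other defining type 17 genes were read in the same libraries. Ccr6, a chemokine receptor of type 17 and B cells, had sorting log2 ratios of -4.13 (-4.38 to -3.91) in sham and -4.50 (-4.80 to -4.24) in BLM. Trdc had -3.94 (-4.40 to -3.54) and -5.08 (-6.13 to -4.31). Both were thus lower in enriched cells, as Il17a was. Il22, a partner cytokine, was at or near 0, with 9 reads in sham depleted, 3 in sham unsorted and 0 elsewhere. Ccl20, the ligand of Ccr6, had at most 2 reads in any library compared here.

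Of the 14 surface and effector genes of type 17 lymphocytes, 8 of 11 tested were at most -3 in sham enriched over depleted cells (median -3.93, 6.86% of all tested genes) and 6 of 12 in BLM (median -3.14, 6.62%). Cd163l1 (-4.81 and -6.04), 5830411N06Rik (-5.10 and -5.22) and the IL-7 receptor gene Il7r (-4.46 and -3.66) were lowest in sham, while in BLM Ccr6 was below Il7r. Kit, a growth factor receptor, went the other way at 3.10 and 4.23. In unsorted cells Cd163l1 was at 1.57 (1.09 to 2.09) in BLM over sham, 5830411N06Rik at 0.77 (0.29 to 1.28) and Il7r at 1.38 (1.26 to 1.50). In depleted cells the first pair stayed above 0, at 1.50 (1.26 to 1.73) and 0.99 (0.76 to 1.22), while Il7r was at -1.03 (-1.09 to -0.96).

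The 12 type 17 transcription factors showed no common direction in the sort, with 5 at most -1 and 4 at least 1 in sham cells (25.2% and 27.5% of all tested genes) and a median of -0.39. Irf4, which T and B cells need for activation, was at -4.31, while Ahr, the aryl hydrocarbon receptor, was at 2.72. Of the 11 genes for the inducing cytokines and their receptors, 6 were at least 1 and 0 at most -1 in BLM over sham unsorted cells (13.9% and 16% of all tested genes), with a median of 1.03. By total counts 5 were at least 1. Both IL-23 subunit genes were among them, Il12b at 2.44 (2.05 to 2.86) and Il23a at 2.35 (1.71 to 3.10), as were Tgfbr1 at 2.15 and Il1b at 1.92. Il23a had 97 reads in BLM and 23 in sham unsorted cells. Macrophage markers, which are known IL-23 and IL-1 sources, had a median of 3.46 in the same comparison, and their part in these ratios was not tested.

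On the receiving side, the receptor genes of the IL-17 family were split by the sort. Il17ra, the shared subunit, was lower in enriched cells at -3.47 in sham and -3.10 in BLM, whereas its partner Il17rc was higher at 2.76 and 1.99, and Il17rd, a family member, at 2.93 and 3.51. In BLM over sham unsorted cells Il17ra was at 1.78 (1.71 to 1.85), Il17rc at -0.35 (-0.57 to -0.13) and Il17rd at -0.84 (-0.92 to -0.76). The ligands Il17b and Il25 had 0 reads in every library.

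Of 12 genes of IL-17 receptor signalling, 3 were at least 1 and 0 at most -1 in BLM over sham unsorted cells. Of all tested genes 13.9% and 16% were. The median of the 12 genes was 0.14. By total counts 2 were at least 1 and 1 at most -1, and the median was -0.12. The 3 were Cebpb at 2.20, Tnfaip3 at 1.46 and Zc3h12a at 1.17, of which the last 2 are feedback inhibitors. Of 13 tested IL-17 target genes, 5 were at least 1 and 1 at most -1, against the same shares, with a median of 0.12. By total counts 5 were at least 1 and 4 at most -1, with a median of -0.14. The neutrophil chemokine genes Cxcl1 (3.15, 2.95 to 3.37) and Cxcl2 (2.22) and the collagenase gene Mmp13 (2.62) led. In depleted cells 8 of 10 tested target genes were at least 1 (13.7% of all tested genes), or 6 by total counts, with a median of 2.48, and neutrophil markers, which share S100a8 and S100a9 with that list, had a median of 2.67. Whether the target genes moved with neutrophil content was not tested.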

How the data were processed

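RNA-Seq covered 3 fractions (unsorted, Lamp1-depleted, Lamp1-enriched) of dissociated lung from sham and BLM mice, with 1 library each, 6 in all. The authors deposited raw read counts per gene, without normalization. Per the submitters' processing notes, the tools included Trimmomatic 0.36, STAR 2.5.2b, featureCounts of Subread 1.5.2 and DESeq2, and the build was GRCm38. The annotation and strand setting of the counting are not given in the sources used here, so reads of antisense genes cannot be told apart.

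Counts were scaled by TMM over the 6 libraries (edgeR 4.0.16, R 4.3.3). Log2 ratios used a prior count of 0.5 reads. Genes reaching 10 reads in either of the compared libraries were tested against limits of 3 and 1, and ratios against 0 reads were given as bounds at 3 reads. Intervals are Clopper-Pearson intervals at 95% (Python 3.11.15, scipy 1.17.1), which cover counting error only. Gene positions, exon lengths and GC content came from GENCODE M21, in which 49056 genes were found by identifier and 259 were not. The programs were tested on simulated data.

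The 7 genes and all lists were chosen with earlier results of these data known. Named genes were the 7 genes, markers of the sort, defining type 17 genes, the 5 genes nearest to Il17a, and up to 3 genes per pathway list with the largest absolute ratio in sham sorted and in unsorted cells among those with at least 50 reads. 5830411N06Rik as a neighbour of Il17a, Kit, Il1b, Ccl20, Il17b, Il25 and Gm26917 were singled out after their values were seen. Of the lists, Areg, Siglecf, Trgc1, Trgc2 and Trgc4 were not analysed here, and values of some defining genes are not reported here.

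Alternatives were DESeq2 1.42.0 size factors, total counts, totals outside Gm26917, a prior of 2 reads, a minimum of 1 or of 50 reads, limits of 2 and 1, counts thinned to the smallest library, and other T cell denominators.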

Additional observations from a re-analysis of the deposited data

Results flagged for a closer look

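Some genes had log2 ratios of opposite sign in sham and BLM cells, or in different fractions, with counting intervals that left out 0. With 1 library per condition the differences themselves were not tested. Zbtb16 in enriched over depleted cells was at 0.47 in sham and -0.25 in BLM, the latter 0.31 when scaled by total counts. In BLM over sham cells Zbtb16 was at -0.99 in unsorted, 0.57 in depleted and -0.15 in enriched cells, and the depleted value was -0.15 when scaled by total counts. Sox13 in BLM over sham was at -0.76 in unsorted and 0.078 in enriched cells. Blk was at 0.23 in unsorted and 0.79 in depleted cells but at -0.48 in enriched cells, and by total counts the first pair were -0.03 and 0.07.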

How the results depend on the processing

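No paired analysis was possible because each condition had 1 library, and for the same reason no replicate could be left out. Scaling by total counts shifted every log2 ratio by -0.72 in BLM over sham depleted cells, 0.56 in BLM enriched over depleted cells, -0.26 between the unsorted and -0.17 between the sham sorted libraries. DESeq2 size factors shifted the first pair by 0.15 and -0.15. Leaving Gm26917 out of the totals shifted the comparisons by at most 0.21 in size. Of 80 alternative values of the main results, 69 stayed and 11 moved. Of 211 for single genes, 187 stayed and 24 moved, 14 of them under total counts.

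The bound of Il17a in enriched over depleted cells was -3.85 in sham and -3.14 on thinned counts, and in BLM it was -5.43, or -4.87 by total counts and -4.68 on thinned counts. Il17a in BLM over sham depleted cells was 0.60 by total counts. With a limit of 2 or 1, the number of genes past it in the sham sort was 5 in each case instead of 3, and in BLM over sham depleted cells it was 1 and 2 instead of 0. With at least 1 read it was 1 in unsorted cells, namely Il17f at 0 against 9 reads. The Il17a fold per CD3 read of 5.44 became 2.97 against the T cell list and, chosen after seeing the data, 1.44 against Lck and Lat. Sox13 in BLM over sham depleted cells was 0.00 with DESeq2 size factors and -0.87 by total counts. The counts of genes past a limit of 1 under other scalings were also chosen after seeing the data. With counts of 0 to 50 reads, depth limits every statement on Il17a and Il17f.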

Other observations

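Genes of other lymphocyte programmes gave the setting for the type 17 genes. All 7 type 1 genes were at most -3 in sham enriched over depleted cells, with a median of -3.97, and 5 of 7 in BLM, or 4 by total counts. Of all tested genes 6.86% and 6.62% were. Eomes (-4.31), Stat4 (-4.05) and the interferon γ gene Ifng (-4.01) led in sham. Between the depleted libraries the type 1 list had a median of -1.20 in BLM over sham, with 6 genes below 0 and 1 above, at 1.10. Ifng was at -1.25 (-1.73 to -0.80) on 48 and 247 reads. Its sign was opposite to that of Il17a by TMM, but the interval of Il17a held 0 by total counts (-0.01 to 1.23). Per CD3 read Ifng was 0.909-fold (0.650 to 1.25) and Tbx21, of the same list, 2.12-fold (1.85 to 2.43).

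Of 7 regulatory T cell genes, 2 were at most -3 in the sham sort and 3 in BLM, the latter 1 by total counts. In BLM over sham depleted cells their median was 0.50, or -0.22 by total counts, with Foxp3 at 1.37 (1.13 to 1.63) on 297 and 247 reads and Ctla4, an inhibitory receptor, at 0.50 (0.33 to 0.68). Of 6 type 2 genes found, 3 were at most -3 in the sham sort, against the same 6.86%. The IL-9 receptor gene Il9r was at -4.64 and the IL-33 receptor gene Il1rl1 at -3.24, while Gata3, their master regulator, was at 0.98.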
